A study of Mus musculus with 6 samples.

Results

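The phagocyte NADPH oxidase subunits were taken as the 5 genes whose symbols are *Cybb*, *Cyba*, *Ncf1*, *Ncf4* and *Rac2*, out of 24223 genes in the count tables. They were selected on the *Cybb* CPM (counts scaled to the library's total), which lies on opposite sides of its Naive level in Th17 and Th1, so the *Cybb* values below are a description and carry no test. The other 4 subunits were included for their function. *Rac1* is described beside them.

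RNA was sequenced from Naive CD4+ T cells of mice and from the Th17 and Th1 cells grown from them, with 2 libraries of each cell type. The Naive cells came from C57BL/6 mice of 1 to 2 months, and were isolated as naive CD4+ T cells with a kit from lymph nodes and spleens that had been pooled. Both Th cultures received anti-CD3, anti-CD28 and anti-IL-4. The Th17 cultures also received anti-IFN-γ, TGF-β, IL-6, IL-1β and IL-23, the Th1 cultures IL-12 and IL-2, and both were collected on the fifth day. All Th cells had therefore been cultured and activated, whereas the Naive cells had not, and polarization cannot be told apart from culture in a comparison with Naive. The libraries are described as independent biological replicates, but how far they share animals is not given in the sources used here.

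The phagocyte NADPH oxidase moves electrons from NADPH across a membrane to oxygen and makes superoxide. Its membrane part is a pair of proteins, gp91phox (*Cybb*), which carries the electrons, and p22phox (*Cyba*), which stabilizes it. The cytosolic proteins p47phox (*Ncf1*) and p40phox (*Ncf4*) join them on activation together with a Rac GTPase, *Rac2* in most blood cells, and the complex is best known for the oxidative burst of neutrophils and macrophages.

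The libraries held 17742158 to 69080017 counts, and replicate 1 was the deeper one in each cell type. Levels are given as CPM after scaling with TMM factors, which correct for composition and lay between 0.862 and 1.09. A gene was called changed in the quasi-likelihood test of edgeR when its log2 fold change exceeded 1 in size and its p, adjusted by Benjamini-Hochberg over 13607 genes, was under 0.01. At these thresholds 631 genes were higher and 383 lower in Th1 than in Naive, against 399 and 363 when libraries were scaled by their size alone. Between Th1 and Th17 the split was 367 higher and 385 lower in Th1, against 203 and 352 with size alone. The labels were checked on marker genes. The 8 T cell markers, *Cd4* and *Cd3e* among them, summed to 3492 to 5164 CPM in the 6 libraries. The 4 Th17 markers, which include *Il17a* and *Il17f*, summed to 1336 and 1816 CPM in Th17 and to at most 4.85 CPM elsewhere. The 4 Th1 markers, which include *Tbx21* and *Ifng*, summed to 775 and 763 CPM in Th1 and to at most 93.8 CPM elsewhere. None of the 3 Naive markers (*Ccr7*, *Lef1*, *Tcf7*) was called in any comparison by edgeR or DESeq2, so they did not set the Naive libraries apart. Of these 3, 1 was lower in Th1 than in Naive at an unadjusted p under 0.05, and 0 passed that p in the other comparisons.

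Markers of other blood cells were present too, and differed between the cell types. The 17 neutrophil markers found in the tables summed to 422 and 245 CPM in Naive, 3420 and 3252 CPM in Th17 and 80.8 and 103 CPM in Th1. Of these 17 genes, 12 were called higher in Th17 than in Naive and 1 (*Mpo*) lower, and 15 were called lower in Th1 than in Th17 and none higher (1 higher at an unadjusted p under 0.05 and by DESeq2). In Th1 against Naive the list was divided, with 6 genes called higher (*S100a8*, *S100a9*, *Ngp*, *Ltf*, *Lcn2* and *Cxcr2*) and 5 lower (*Elane*, *Mpo*, *Prtn3*, *Ctsg* and *Csf3r*). The calgranulin gene *S100a8* stood at 0.969 and 0.149 CPM in Naive, 1149 and 1142 CPM in Th17 and 6.77 and 5.75 CPM in Th1. The 16 markers of monocytes, macrophages and dendritic cells summed to 81.5 and 51.5 CPM in Naive, 765 and 1371 CPM in Th17 and 154 and 175 CPM in Th1. Of the defining genes in that list, *Ms4a7* was at 0 in both Naive libraries, *Cd209a* in both Th17 libraries, and *C1qa* and *Cd209a* in both Th1 libraries. The 9 B cell markers summed to 4.42 to 26.6 CPM in all libraries. The 6 erythroid markers summed to 573 and 103 CPM in Naive and to 2.15 CPM or less in Th17 and Th1. The 12 markers of mast cells, basophils and eosinophils summed to 71.6 to 675 CPM, the 5 of megakaryocytes and platelets to 4.75 to 469 CPM, both highest in Th17 replicate 2, and the 5 of CD8 T and NK cells to 7.52 to 46.1 CPM. The plot of marker lists by library shows the sums of 4 lists. In RNA from a whole culture, fewer cells of a type and less RNA per cell cannot be told apart.

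**Figure D1:**
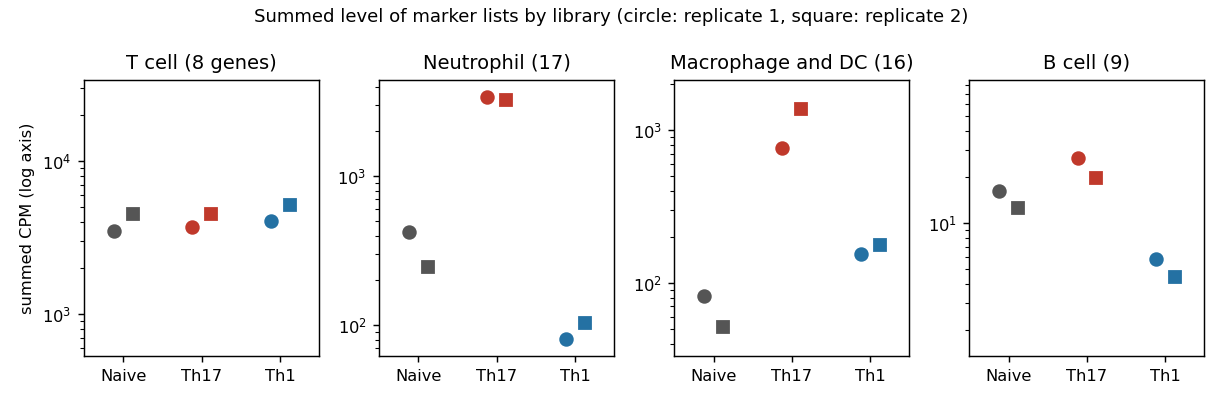
Summed CPM (log axis) of the T cell, neutrophil, monocyte/macrophage/dendritic cell (DC) and B cell marker lists in each library; circles are replicate 1 and squares replicate 2, and numbers in the titles are genes. The T cell sum stayed between 3492 and 5164 CPM, while the neutrophil sum was 3252 CPM or more in Th17 and 422 CPM or less elsewhere.

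*Cybb*, the catalytic subunit, had the level that chose the set. It stood at 11.1 and 7.13 CPM in Naive, 72.6 and 77.4 CPM in Th17 and 2.66 and 1.71 CPM in Th1, from 754 and 144, 4744 and 1368, and 172 and 27 counts. Both Th17 libraries lay above both Naive libraries and both Th1 libraries below them. The fitted level in Th17 was 8.19-fold that in Naive (log2 difference 3.03, SE 0.35), and the level in Naive was 4.08-fold that in Th1 (log2 difference of Th1 from Naive -2.03, SE 0.35). Between the cultures the log2 difference of Th1 from Th17 was -5.06 (SE 0.39), or 33.4-fold. Both comparisons with Naive share the same 2 Naive libraries. The neutrophil marker sum had the same order of cell types as *Cybb*. Of its 17 genes, however, 12 had a log2 fold change above 0 in Th1 against Naive, and the median was 1.66. Of these 12, 6 were called higher, and *Mmp8* and *Retnlg* had at most 4 counts in each Naive and Th1 library. The 5 genes below 0 were all called lower. The macrophage and dendritic cell sum was highest in Th17 too, and higher in Th1 than in Naive. Most of that sum in Th1 was *Ccr2*, at 132 and 151 CPM there and 31.5 and 25.1 CPM in Naive. Of the 15 tested genes in that list, 10 had a log2 fold change below 0 in Th1 against Naive and 5 above, with a median of -0.64. In Th17 most of the sum of 765 and 1371 CPM was *Ccr2* (465 and 459 CPM) and *Lyz2* (223 and 762 CPM). Of the same 15 genes, 13 were above 0 in Th17 against Naive and 2 below, and 6 were called higher. Per 100 CPM of the neutrophil marker sum, *Cybb* stood at 2.62 and 2.91 CPM in Naive, 2.12 and 2.38 CPM in Th17 and 3.29 and 1.66 CPM in Th1. These ranges overlapped between Th1 and each of the other cell types. Different genes made up the neutrophil sum in each cell type. In Naive nearly all of it was *Mpo* (251 and 159 CPM), *Elane* (57.3 and 29.6), *Prtn3* (60.6 and 29.8) and *Ctsg* (43.2 and 21.5 CPM). Each of these was at 7.52 CPM or less in Th1, where *Cxcr2* was 36.2 and 34.9 CPM. The lower sum in Th1 than in Naive, and *Cybb* per 100 CPM of it, therefore depend on which genes the list holds. The part of neutrophil and other myeloid RNA in the *Cybb* values was not tested.

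*Cybb* (ENSMUSG00000015340.10) is annotated on the minus strand of X, from 9435252 to 9487771 of GRCm38. The RefSeq start used here lies inside that span. The 250 bases before this start (GRCm38.p6, chrX:9469325-9469574, minus strand) are printed because *Cybb* and *Ncf1* parted most in Th1, and the same window of *Ncf1* follows in its place. Capitals mark matches to a motif of the IRF type, GAAA followed by any 2 bases and a further GAAA. Factors of the interferon response and of myeloid cells bind motifs of this type. Capitals also mark matches to TGANTCA, a loose form of the AP-1 motif TGA(C/G)TCA that allows any middle base. Both patterns were searched on both strands.

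Cybb: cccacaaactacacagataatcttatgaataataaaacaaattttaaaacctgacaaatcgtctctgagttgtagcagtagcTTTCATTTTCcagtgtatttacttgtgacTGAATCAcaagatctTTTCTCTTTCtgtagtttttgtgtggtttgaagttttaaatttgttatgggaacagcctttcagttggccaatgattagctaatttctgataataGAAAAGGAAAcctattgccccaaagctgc

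The *Cybb* window held 3 matches to the IRF motif, at positions -168 to -159, -124 to -115 and -29 to -20 from the start. It held 1 match to TGANTCA, at -139 to -133, which reads TGAATCA and so lacks the C or G of the AP-1 motif. A further pattern, GAGGAA, the core bound by PU.1 and related ETS factors, matched once on the other strand just after the start, at positions 10 to 15. Mouse promoters in RefSeq were taken from 250 bases before to 50 after the start. Of these 32851 promoters, 3.44% held the IRF motif, 7.81% TGANTCA and 28.3% GAGGAA. These matches are letters in a window, not measured binding.

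*Cyba*, which encodes the membrane partner p22phox, did not follow *Cybb*. Its levels were 298 and 207 CPM in Naive, 516 and 741 CPM in Th17 and 379 and 424 CPM in Th1. All 4 Th libraries lay above both Naive libraries, and Th17 lay above Th1. The log2 fold change was 1.32 (SE 0.32) in Th17 and 0.67 (SE 0.31) in Th1 against Naive, with adjusted p of 0.023 and 0.18 (edgeR), and neither was called. The log2 fold change of Th1 against Th17 was -0.65 (SE 0.31, adjusted p = 0.18, edgeR). DESeq2 called *Cyba* higher in Th17 than in Naive. The gene (ENSMUSG00000006519.11) lies at 8:122424776-122432930 on the minus strand, and its promoter window held none of the 3 motifs.

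*Ncf1*, which encodes the organizer p47phox, ran the other way in Th1. It stood at 12.4 and 11.8 CPM in Naive, 64.2 and 49.1 CPM in Th17 and 236 and 310 CPM in Th1. The 3 cell types did not overlap, and Th1, where *Cybb* was lowest, had the highest *Ncf1*. *Ncf1* rose 4.69-fold in Th17 (log2 fold change 2.23, SE 0.28, adjusted p = 0.00095, edgeR) and 22.6-fold in Th1 (log2 fold change 4.50, SE 0.31, adjusted p = 3.4e-05), both against Naive. It was also 4.81-fold higher in Th1 than in Th17 (log2 fold change 2.27, SE 0.28, adjusted p = 0.00096, edgeR). This last call was lost without Th17 replicate 2, where the log2 fold change was 2.10 and the adjusted p 0.012. Per 100 CPM of the neutrophil marker sum, *Ncf1* stood at 2.93 and 4.81 CPM in Naive, 1.88 and 1.51 CPM in Th17 and 292 and 302 CPM in Th1. By this measure *Cyba*, *Ncf4* and *Rac2* were also highest in Th1 and lowest in Th17. In Naive *Cyba* stood at 70.6 and 84.4 CPM, *Ncf4* at 9.58 and 19.7 CPM and *Rac2* at 220 and 536 CPM. In Th1 they stood at 469 and 412, 93.4 and 80.5, and 1653 and 1948 CPM. The neutrophil sum itself was lowest in Th1, at 80.8 and 103 CPM.

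*Ncf1* (ENSMUSG00000015950.13) lies at 5:134220053-134229625 on the minus strand, and some of its exons overlap those of *Gtf2ird2*, a gene on the other strand. The Smart-seq2 reaction named in the labels does not itself mark strand, and the strand setting of the counting is not settled, so the assignment of reads in the shared stretch is uncertain. *Gtf2ird2* stood at 24.6 and 28 CPM in Naive, 27.9 and 25.2 CPM in Th17 and 30.9 and 39.8 CPM in Th1, and was not called in any comparison by edgeR (adjusted p of 0.97, 0.36 and 0.33). The 250 bases before the *Ncf1* start (GRCm38.p6, chr5:134229626-134229875, minus strand) are shown with the same capitals.

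Ncf1: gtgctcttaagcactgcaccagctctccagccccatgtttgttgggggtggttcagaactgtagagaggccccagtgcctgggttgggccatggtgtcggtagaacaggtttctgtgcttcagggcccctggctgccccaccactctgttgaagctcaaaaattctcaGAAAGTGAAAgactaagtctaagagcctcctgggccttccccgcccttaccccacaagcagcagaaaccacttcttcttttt

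The *Ncf1* window held 1 match to the IRF motif, at positions -82 to -73, and none to TGANTCA or GAGGAA.

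*Ncf4*, which encodes p40phox, a lipid-binding cytosolic subunit, rose in Th17. It stood at 40.4 and 48.3 CPM in Naive, 106 and 120 CPM in Th17 and 75.5 and 82.7 CPM in Th1. The cell types did not overlap, with Th1 between the other two. The change in Th17 against Naive was 2.54-fold (log2 fold change 1.35, SE 0.25, adjusted p = 0.0075, edgeR). This call rests on the whole set of libraries: leaving out any library but Th1 replicate 1 ended it, with adjusted p from 0.0116 to 0.0569, as did scaling by library size alone. In Th1 against Naive the log2 fold change was 0.84 (SE 0.25, adjusted p = 0.047, edgeR), and in Th1 against Th17 it was -0.51 (SE 0.25, adjusted p = 0.18), neither of them called. *Ncf4* (ENSMUSG00000071715.12) lies at 15:78244801-78262580 on the plus strand.

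*Rac2*, the GTPase that completes the complex, was lowest in Th17. It stood at 926 and 1312 CPM in Naive, 670 and 511 CPM in Th17 and 1337 and 2004 CPM in Th1. The cell types did not overlap, but Naive replicate 2 came close to Th1 replicate 1. The log2 fold change was -0.92 (SE 0.35, adjusted p = 0.095, edgeR) in Th17 and 0.58 (SE 0.34, adjusted p = 0.31) in Th1 against Naive. Th1 against Th17 gave 1.5 (SE 0.35, adjusted p = 0.02, edgeR), which was not called but passed in DESeq2. *Rac2* (ENSMUSG00000033220.7) lies at 15:78559167-78572783 on the minus strand. *Rac1*, the widely expressed relative that can take its place, stood at 239 and 301 CPM in Naive, 262 and 267 CPM in Th17 and 374 and 500 CPM in Th1. No comparison of *Rac1* was called, with adjusted p of 0.95, 0.13 and 0.11 (edgeR). Some *Rac1* exons overlap those of *Daglb* on the other strand, so the assignment of reads in that stretch is uncertain, as for *Ncf1*.

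**Figure D2:**
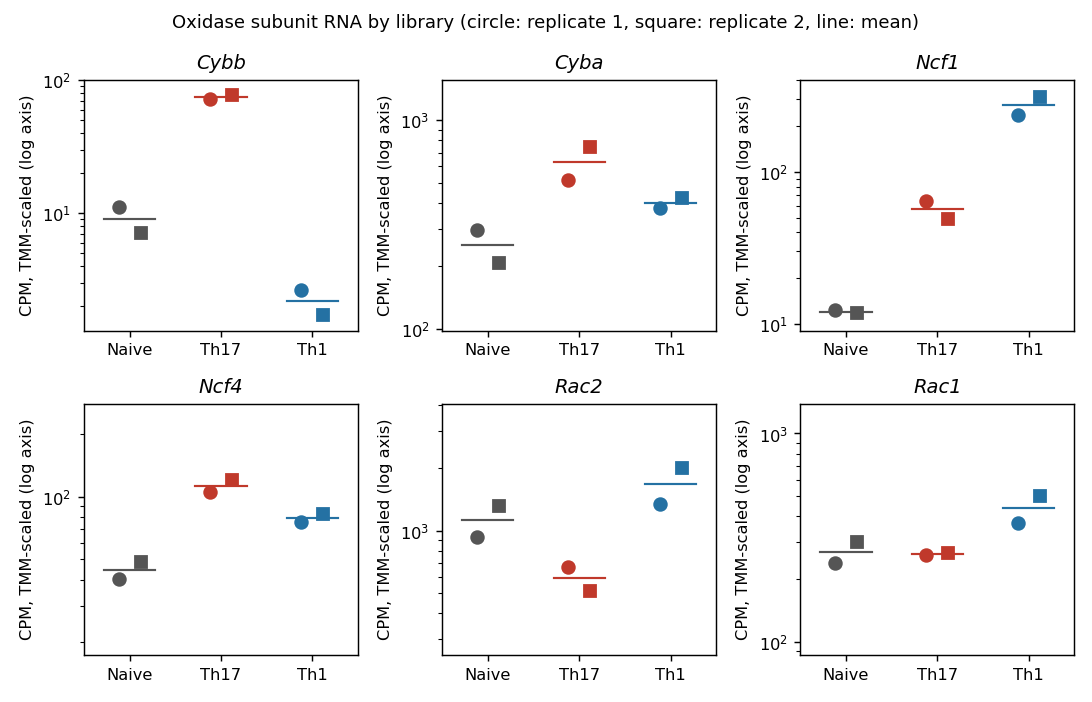
CPM (TMM-scaled, log axis with its own range in each panel) of the 5 members and *Rac1* in the 2 Naive, 2 Th17 and 2 Th1 libraries; circles are replicate 1, squares replicate 2 and lines the mean of both. *Cybb* was highest in Th17 and lowest in Th1, whereas *Ncf1* was highest in Th1 at 236 and 310 CPM.

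Of the 4 subunits that can be tested, 2 (*Ncf1* and *Ncf4*) were called higher in Th17 than in Naive, against 4.01% of all tested genes called higher and 1.43% called lower. Only *Ncf1* of these 4 was called in Th1 against Naive, where 4.64% of tested genes were called higher and 2.81% lower. *Ncf1* was likewise the only one called between Th1 and Th17, where 2.70% of genes were called higher in Th1 and 2.83% lower. Groups that do not overlap were common with 2 libraries each: 32.4% of genes lay wholly higher and 33.1% wholly lower in Th17 than in Naive, 27.6% and 28.4% did so in Th1 against Naive, and 31.5% and 35.1% in Th1 against Th17. The separation of the members by itself is therefore not a result about them.

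**Figure D3:**
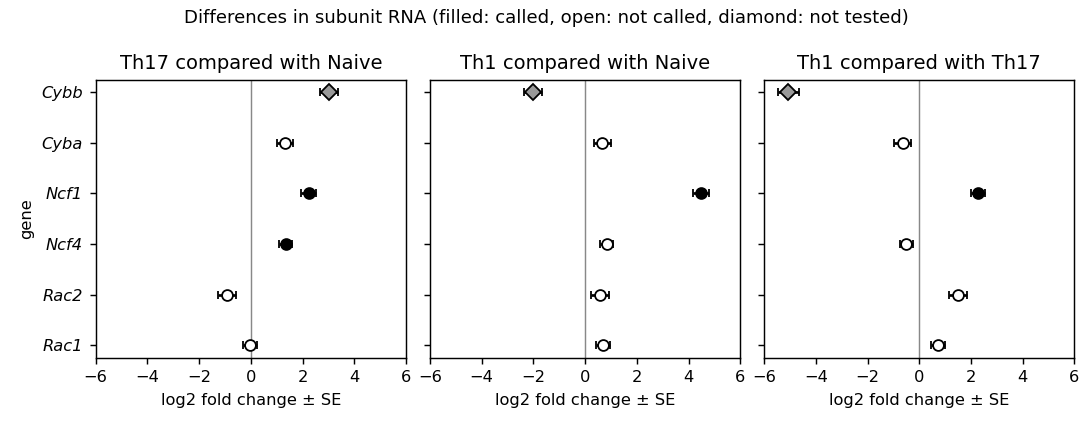
Log2 fold change with its standard error (SE, bars) for the 5 members and *Rac1* in the 3 comparisons, from 2 libraries per cell type. Black circles passed the thresholds, open circles did not, and the grey diamond is *Cybb*, which has no test; *Cybb* and *Ncf1* lie on opposite sides of 0 in Th1 against Naive, at -2.03 and 4.50.

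Between genes, levels were compared per kilobase of transcript (RPKM from the same CPM). In Naive the order from high to low was *Rac2* and *Cyba* (mean 368 and 339 RPKM), *Rac1* (65.0), *Ncf4* (30.3), *Ncf1* (4.19) and *Cybb* (1.91 RPKM). The ranges of *Rac2* and *Cyba* overlapped. In Th17 *Cyba* led with a mean of 845 RPKM, then came *Rac2* (194), *Ncf4* (77.0), *Rac1* (63.6), *Ncf1* (19.7) and *Cybb* (15.8 RPKM), and no neighbours overlapped. In Th1 *Rac2* and *Cyba* (550 and 540 RPKM) overlapped, as did *Rac1* and *Ncf1* (105 and 94.7 RPKM), with *Ncf4* at 54.0 RPKM and *Cybb* at 0.459 RPKM. The catalytic subunit was thus the lowest of these 6 genes in each cell type.

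The proportions of the subunits within a library changed most between *Ncf1* and *Cybb*. These pairs were chosen after the values were seen and are a description. The ratio of *Ncf1* to *Cybb*, per base of transcript, was 1.84 and 2.73 in Naive and 1.46 and 1.05 in Th17, but 146 and 300 in Th1. A ratio within a library does not depend on its scaling. The ratio of *Cyba*, the membrane partner, to *Cybb* was 172 and 185 in the Naive libraries, 45.4 and 61.2 in the Th17 libraries, and 910 and 1587 in the Th1 libraries. *Ncf4* exceeded *Ncf1* in Naive (6.44 and 8.07 to 1) and Th17 (3.24 and 4.80 to 1) but not in Th1, where the ratio was 0.63 and 0.525. *Rac2* exceeded *Rac1* in all 6 libraries, by 2.62 to 5.97 per base.

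**Figure D4:**
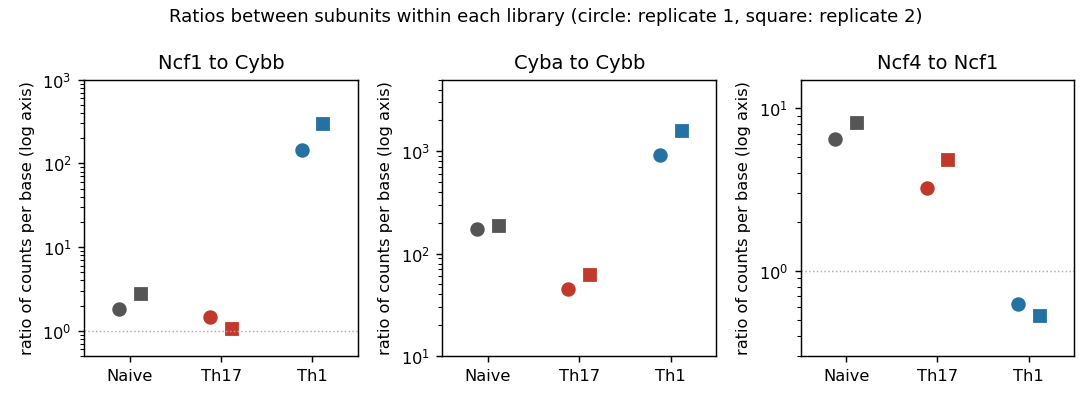
Ratio of counts per base of transcript (log axis, range set per panel) between pairs of subunits in each library; circles are replicate 1, squares replicate 2, and the dotted line is a ratio of 1. The *Ncf1* to *Cybb* ratio was 146 and 300 in Th1 and at most 2.73 in the other 4 libraries.

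The 5 genes whose pattern over the 6 libraries was most like that of *Cybb* were *Anxa3*, *Clec12a*, *Cd300a*, *Sirpa* and *Fcgr2b*. Likeness was the root mean square difference of log2 CPM after centring each gene, and was 0.284 for *Anxa3* and 0.441 for *Fcgr2b* among 11768 genes. *Clec12a*, *Cd300a* and *Sirpa* encode inhibitory receptors known from myeloid cells, and *Fcgr2b* the inhibitory Fc receptor. *Clec12a*, for example, stood at 6.10 and 3.96 CPM in Naive, 20.6 and 29.5 CPM in Th17 and 1.28 and 0.885 CPM in Th1. *Cyba* ranked 1919 in likeness to *Cybb* among 11772 genes, *Ncf4* 2644, *Rac2* 11098 and *Ncf1* 11611. The same measure was applied to *Ncf1* after its values were seen. The 5 nearest genes were *Il18r1* (0.253), *Il18rap* (0.265), *Ly6a* (0.287), *Prss16* (0.313) and *B430306N03Rik* (0.318). *Il18r1* and *Il18rap* encode the chains of the interleukin-18 receptor. *Il18r1* stood at 45.7 and 52.1 CPM in Naive, 166 and 170 CPM in Th17 and 785 and 870 CPM in Th1.

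The wider oxidase pathway was read from a list of 58 genes in 6 roles, of which 57 were in the tables and 51 were tested. In Th17 against Naive 5 of the 51 were called higher and 1 lower, in Th1 against Naive 2 and 5, and in Th1 against Th17 1 and 4. The shares of all tested genes were the 4.01% and 1.43%, 4.64% and 2.81%, and 2.70% and 2.83% given above. The median log2 fold change of the list was -0.03, 0.17 and -0.0046 in these comparisons, beside -0.02, -0.02 and -0.03 over all tested genes. The medians were the same with genes at 0 in a group set to their bound.

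Of the 12 other subunits and partners in the tables, 6 were tested. The one called was *Noxa1*, an activator of NOX1, in Th1 against Naive. *Noxa1* stood at 0.822 and 0.99 CPM in Naive, was at 0.199 and 0.226 CPM in Th17, and had no count in either Th1 library. With 3 counts over the Th1 group as the limit, it was at least 23.1-fold higher in Naive. *Nox3*, *Nox4* and *Duoxa1* had no count in any library, and *Nox1*, another catalytic subunit, was at 0.545 CPM or less. None of the 7 Rac regulators, such as *Vav1* and *Dock2*, was called in any comparison by edgeR. At an unadjusted p under 0.05, 2 of them were lower in Th17 than in Naive, 1 was higher in Th1 than in Naive and 3 were higher in Th1 than in Th17, and DESeq2 called 1, 0 and 2 genes in these comparisons and directions. Of the 8 kinases and lipid enzymes, *Pak1*, a kinase activated by Rac, fell in Th1 against Naive (log2 fold change -3.52, SE 0.50, adjusted p = 0.0015, edgeR). It stood at 10.7 and 7.13 CPM in Naive, 3.90 and 4.24 CPM in Th17 and 0.603 and 1.01 CPM in Th1.

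Of the 7 transcription factors in the list, 3 were called. *Cebpe*, a factor of granulocyte maturation, stood at 3.48 and 1.58 CPM in Naive, 28.7 and 19.6 CPM in Th17 and 0.34 and 0.253 CPM in Th1. It rose in Th17 (log2 fold change 3.22, SE 0.47, adjusted p = 0.0021, edgeR) and fell in Th1 (-3.04, SE 0.53, adjusted p = 0.0041), both against Naive. *Spi1*, which encodes the myeloid and B cell factor PU.1, stood at 19.5 and 6.29 CPM in Naive, 33.2 and 28.9 CPM in Th17 and 1.61 and 1.83 CPM in Th1. *Spi1* fell in Th1 against Naive (log2 fold change -2.93, SE 0.52, adjusted p = 0.0044, edgeR) and was not called in Th17 against Naive (1.26, SE 0.47, adjusted p = 0.095). *Irf8*, an interferon-induced factor of myeloid and lymphoid cells, moved the other way. It stood at 58.7 and 37.5 CPM in Naive, 30.6 and 28 CPM in Th17 and 172 and 128 CPM in Th1, and rose in Th1 against Naive (log2 fold change 1.64, SE 0.30, adjusted p = 0.0054, edgeR). *Cebpe* and *Spi1* were highest in Th17, as were the neutrophil and macrophage marker sums. In Th1 against Naive *Cebpe*, *Spi1* and the neutrophil sum were lower, though 12 of the 17 neutrophil genes were above 0. Among those 17, 6 were called higher and 5 lower in Th1 than in Naive. The macrophage sum was higher there, mostly through *Ccr2*, while 10 of the 15 tested genes of its list were below 0. *Irf8* was lowest in Th17. The part of those cells in these changes was not tested.

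Of the 19 genes that remove or use oxidants, 3 were called higher in Th17 than in Naive and none higher in Th1 than in Naive by edgeR (4 higher in Th1 at an unadjusted p under 0.05, 2 by DESeq2). *Srxn1*, the enzyme that repairs overoxidized peroxiredoxins, rose from 2.48 and 1.09 CPM in Naive to 20.7 and 21.3 CPM in Th17 (log2 fold change 3.51, SE 0.50, adjusted p = 0.0019, edgeR). In Th1 *Srxn1* stood at 7.32 and 3.92 CPM, above Naive but not called (1.63, SE 0.48, adjusted p = 0.043, edgeR). *Hmox1*, heme oxygenase, rose from 1.14 and 2.18 CPM in Naive to 8.55 and 18.3 CPM in Th17 (3.04, SE 0.53, adjusted p = 0.0052, edgeR). In Th1 *Hmox1* stood at 6.40 and 9.04 CPM, above Naive but not called (2.24, SE 0.52, adjusted p = 0.016, edgeR), and overlapped Th17. *Slc7a11*, the cystine transporter, stood at 0.205 and 0.149 CPM in Naive, 3.55 and 20.5 CPM in Th17 and 0.356 and 0.0632 CPM in Th1, and its Th17 libraries differed widely. *Slc7a11* was called in Th17 against Naive (5.98, SE 0.97, adjusted p = 0.0036, edgeR). *Mpo*, the neutrophil enzyme that turns hydrogen peroxide into hypochlorous acid, was highest in Naive. It stood at 251 and 159 CPM there, at 68.1 and 58.7 CPM in Th17 and at 6.76 and 7.52 CPM in Th1, and fell in both Th17 (-1.69, SE 0.29, adjusted p = 0.0047, edgeR) and Th1 (-4.85, SE 0.34, adjusted p = 3.4e-05). *Mpo* is also in the neutrophil marker list, and did not follow *S100a8* and *Cybb* into Th17.

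Of the 4 genes that supply NADPH, *Me1*, the cytosolic malic enzyme, was called in both Th comparisons with Naive (adjusted p = 0.0016 and 0.0011, edgeR). It had no count in Naive and stood at 1.45 and 1.36 CPM in Th17 and 1.62 and 2.02 CPM in Th1. With 3 counts over the Naive group as the limit it was at least 42.2-fold higher in Th17 and at least 50.1-fold higher in Th1. *G6pdx* and *Pgd*, which encode the NADPH-making enzymes of the pentose phosphate pathway, were called in no comparison by edgeR, and lay between 44.5 and 154 CPM in all libraries.

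Of these 18 pathway calls, 13 were lost when a library was left out. Those of *Mpo* in both Th1 comparisons, *Cebpe* and *Spi1* in Th1 against Th17 and *Me1* in Th1 against Naive were kept without each of the 6 libraries. *Noxa1* lost its call without any library but Th17 replicate 2 (adjusted p of 0.0108 to 0.0583, edgeR). In Th1 against Naive, *Cebpe* (adjusted p of 0.0109 to 0.0224, edgeR) and *Spi1* (0.0102 to 0.0268) lost theirs without Naive replicate 1, Th17 replicate 1 or either Th1 library. *Irf8* lost its call in the same comparison without Naive replicate 2, Th17 replicate 1 or Th1 replicate 1 (0.0118 to 0.0271), and in Th1 against Th17 without either Th17 library (0.0125 and 0.0151). *Pak1* lost its call without Th1 replicate 1 (0.0116). In Th17 against Naive, *Cebpe* (0.0208) and *Srxn1* (0.0107) lost theirs without Th17 replicate 1, *Me1* without Naive replicate 1 or Th17 replicate 1 (0.0139 and 0.0107), and *Hmox1* without Naive replicate 1 or Th17 replicate 2 (0.0263 and 0.0378). *Mpo* lost the same comparison without Naive replicate 1 or either Th17 library (0.0234 to 0.0484). *Slc7a11* lost its call in Th17 against Naive without Th17 replicate 2 or either Naive library (0.0136 to 0.0228), and in Th1 against Th17 without Th17 replicate 2 or either Th1 library (0.0115 to 0.0386).

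**Figure D5:**
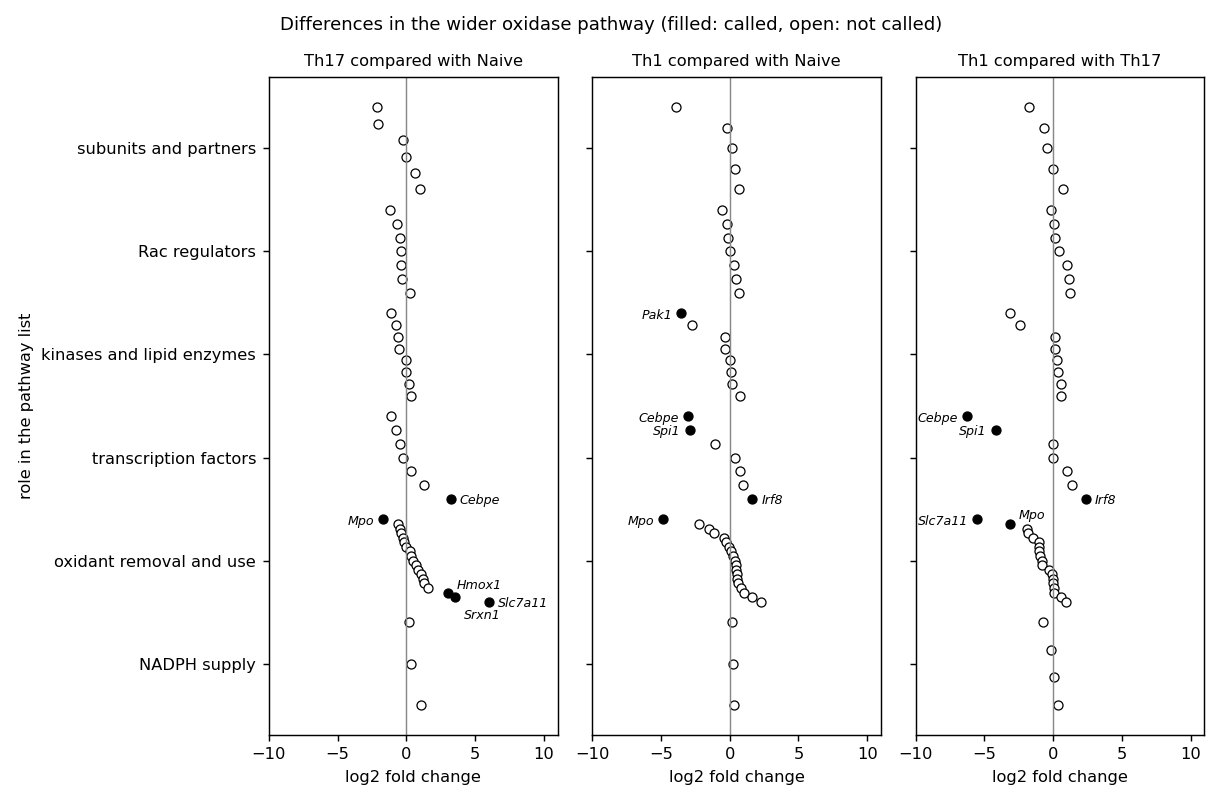
Log2 fold change of each tested gene of the pathway list (51 tested genes) by role in the 3 comparisons, 2 libraries per cell type; filled circles passed the thresholds and are named. Genes without a count in one of the groups compared (*Noxa1* in Th1, *Me1* in Naive) are not drawn, and *Cebpe* and *Spi1* lie below 0 and *Irf8* above 0 in both comparisons of Th1.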

How the data were processed

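The 6 libraries are 2 each of Naive, Th17 and Th1 cells. The authors mapped reads to mm10 with HISAT2 (2.2.1) and counted them per gene with HTSeq (0.13.5). The deposited values are raw counts, of whole numbers. The methods and the supplementary code give different strand settings for counting, so which one was used is not settled here. No column lacked a sample (0 unmapped).

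The analysis used edgeR 4.0.16 in R 4.3.3 (TMM, filterByExpr, glmQLFit and glmQLFTest, cell type as the only term, all 6 libraries in 1 fit) and DESeq2 1.42.0 as an alternative. The study's methods name DESeq2 (1.34.0 in the submitters' processing notes). Of 24223 genes, 13607 were tested. The SE is the log2 fold change divided by the square root of F. CPM are TMM-scaled, and log2 CPM for likeness used a prior count of 2 and left out genes with 3 counts or fewer in any library. RPKM used the longest protein-coding transcript of GENCODE vM21, a choice made after values were seen, and promoters are from RefSeq (GRCm38.p6), with entries matched for *Cybb*, *Cyba* and *Ncf1*. With 2 against 2 libraries an exact permutation test cannot go below p = 0.333, so single values were not tested that way.

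The members, the pathway and marker lists and the alternatives were chosen with earlier results of these data known. Named genes are the members, *Rac1*, up to 3 called pathway genes per role and comparison with the largest change, the 5 genes most like *Cybb*, and markers. The *Ncf1* likeness, the ratios, the levels per 100 CPM of the neutrophil list, the motifs, *Gtf2ird2* and pathway genes named without a call were chosen after values were seen. *Cybc1*, *Ly6g* and *Adgre1* were not matched by symbol and are not analysed here. Some genes of these lists are not reported here and were left out of all counts and sums. The alternatives were no filter, DESeq2, scaling by RLE size factors or by library size only, the replicate number as a block, an adjusted p under 0.05, only the 4 libraries compared, and leaving out each library. On 13607 genes simulated for Th17 against Naive, edgeR found 79 of the 100 genes given a log2 change of 3, 19 of the 100 given 1.5, and 2 of 13407 left unchanged. DESeq2 found 85, 43 and 13. Intervals between 2 libraries are wide, and depth counts cover counting error only.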

Additional observations from a re-analysis of the deposited data

Results flagged for a closer look

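The change from Naive differed between Th1 and Th17 for 7 of the members and pathway genes named, by the log2 fold change of Th1 against Th17. For *Cybb* it was -5.06, and this difference was not tested, since the gene was chosen for it. For *Ncf1* it was 2.27 and for *Irf8* 2.36 (adjusted p = 0.0013, edgeR), both higher in Th1. The difference was -4.18 for *Spi1* (adjusted p = 0.0012), -6.27 for *Cebpe* (adjusted p = 0.00024), -5.53 for *Slc7a11* (adjusted p = 0.0048) and -3.15 for *Mpo* (adjusted p = 0.00037), all lower in Th1 by edgeR. No group had enough libraries to look for outlying samples.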

How the results depend on the processing

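No log2 fold change of the 5 members, and none of the 18 pathway calls, reversed its direction under the alternatives run. The alternatives for pathway genes were added after seeing the data. Apart from leaving out single libraries, these 18 kept their call in 122 values and lost it in 4: *Irf8* lost it in Th1 against Naive with library size alone, and *Irf8*, *Cebpe* and *Spi1* lost it there with only the 4 libraries compared. For the 4 tested members, 77 of 84 values without leaving out a library kept their call or lack of one. DESeq2, no filter on low counts and an adjusted p under 0.05 each called *Cyba* in Th17 against Naive (1.33, 1.3 and 1.32 on the log2 scale) and *Rac2* in Th1 against Th17 (1.5, 1.52 and 1.5). Library size alone ended the *Ncf4* call in Th17 against Naive (1.31). It moved the median of all genes to -0.26 in Th1 against Naive and -0.24 in Th1 against Th17, and to -0.05 in Th17 against Naive.

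Counts of pathway genes called moved more. Higher and lower in Th17 against Naive were 5 and 1, and became 7 and 3 with DESeq2, 8 and 3 without the filter and 9 and 3 at an adjusted p under 0.05. In Th1 against Naive 2 and 5 became 4 and 8, 4 and 10, and 4 and 8 in the same order. In Th1 against Th17 1 and 4 became 5 and 8, 4 and 12, and 5 and 10. In Th1 against Naive, 1 gene was higher with library size alone, and 1 was higher and 3 lower with only the 4 libraries compared. Over all genes, the higher and lower calls in Th17 against Naive were 545 and 194, against 1047 and 670 with DESeq2, 1203 and 951 without the filter and 1223 and 840 at an adjusted p under 0.05. In Th1 against Naive they were 631 and 383, against 1110 and 807, 1287 and 972, and 1188 and 976. In Th1 against Th17 they were 367 and 385, against 925 and 872, 1188 and 1044, and 1036 and 1076, so more genes were higher than lower with DESeq2 and without the filter. Part of each rise is the looser threshold or larger set of genes by construction, and the cause for DESeq2 was not tested.

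Each library was left out in turn, with the lone sample of a group assumed to vary like the others. The *Cybb* difference then ranged from 2.75 to 3.39 in Th17 against Naive and from -2.38 to -1.67 in Th1 against Naive. Between Th1 and Th17 it ranged from -5.46 to -4.80. The *Ncf4* change in Th17 ranged from 1.22 to 1.47 and lost its call without any of 5 libraries, and the *Ncf1* change in Th1 against Th17 ranged from 2.07 to 2.47. Pathway genes higher and lower ranged from 2 to 5 and 0 to 1 in Th17 against Naive, 1 to 2 and 1 to 6 in Th1 against Naive, and 0 to 2 and 3 to 7 in Th1 against Th17. Without Th17 replicate 1, 2 were higher in Th17 than in Naive, without Th1 replicate 1, 1 was lower in Th1 than in Naive, and without Naive replicate 2, 7 were lower in Th1 than in Th17.

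Replicate numbers are shared, but nothing says that they pair the samples: deviations from the group means correlated at -0.23 (Naive and Th17), 0.17 (Naive and Th1) and 0.08 (Th17 and Th1). With the replicate number as a block, 7 pathway genes were lower in Th1 than in Th17 rather than 4, no member's call changed, and calls in Th17 against Naive over all genes were 706 and 329. Depth limits *Cybb* most of the members, with 27 counts in Th1 replicate 2.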
